A study of Mus musculus with 102 samples.

Results

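Trimethylation of histone H3 lysine 4 (H3K4me3) was compared between R1 mouse embryonic stem (ES) cells with catalytically inactive MLL3 and MLL4 and wild-type R1 ES cells. All peaks of the deposited H3K4me3 table were used, 34553 of the 170107 peaks in the tables of H3K4me1, H3K4me2 and H3K4me3 for these lines. In the labels the genotype of the first line is MLL3/4 double catalytic dead (dCD below) and that of the second is wild-type. Both lines are R1 ESC of strain 129SV, grown on mouse embryonic fibroblast feeder cells in serum-free medium with leukemia inhibitory factor. The H3K4me3 libraries are 4 of the 102 of the series, 2 from dCD and 2 from wild-type cells, made by chromatin immunoprecipitation and sequencing (ChIP-seq) with 1 antibody (Millipore, clone MC315). Each line also has 2 input libraries for all of its marks. The labels name 1 dCD line, so the dCD mutations and other differences between the lines cannot be told apart, and nothing in them says that the libraries came from separate cultures.

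H3K4me3 is the methylation state typical of active and poised promoters, and in mammals it is placed mainly by the SET1A/B and MLL1/2 complexes. MLL3 (KMT2C) and MLL4 (KMT2D) are the main H3K4 monomethyltransferases of enhancers, where H3K4me1 and often H3K4me2 are found with little H3K4me3. A catalytic-dead enzyme is designed to be made but not to methylate, so that its other roles can be told from its enzymatic one. The comparison therefore asks what happens to H3K4me3 when the methyltransferase activity of the enhancer enzymes is missing.

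The table gives each peak's position, the authors' group (distal or proximal) and a fold enrichment in each line, read here as ChIP signal over background. It holds 1 value per line, so there is no spread between libraries, no test between the lines and no known depth, and the differences below have no replicate check. A peak is called lower at a ratio of dCD over wild type of 0.5 or below and higher at 2 or above, which is a rule of size and not a test. By this rule 1547 peaks were lower and 1089 higher in dCD cells, 4.48% and 3.15% of the table. For comparison, 28.4% of all H3K4me1 peaks were lower and 15.2% higher, and 23.0% of all H3K4me2 peaks were lower and 1.91% higher. Scaled so that both lines had the same distribution, 986 H3K4me3 peaks were lower and 1497 higher, so lower peaks were 39.7% of the calls in place of 58.7%. Which direction is the more frequent thus depends on the scaling. The nearest ratios inside the lower limit were 0.49997 and 0.49987 and outside it 0.50005 and 0.50028, while those inside the higher limit were 2.0002 and 2.0015 and outside it 1.9998 and 1.9994.

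Levels in the lines were close for most peaks. The median fold enrichment over all peaks was 6.63 in dCD and 6.53 in wild-type cells, with quartiles of 3.97 and 13.3 in dCD and 3.99 and 13.4 in wild-type cells. The median log2 ratio was -0.03, with quartiles of -0.30 and 0.23, and Spearman's rho of the levels in the lines was 0.875 across 34553 peaks, which share the libraries of each line. Distal peaks (18030) were narrow and weakly enriched, with a median width of 1077 bp and a median fold enrichment of 4.45 in dCD and 4.43 in wild-type cells. Proximal peaks (16523) were 2317 bp wide at the median and had 13.1 in dCD and 13.2 in wild-type cells. The order of peaks by level was less alike between the lines at distal peaks (rho 0.591) than at proximal peaks (rho 0.905). Distal peaks were also weaker, and rho was not compared at equal level. The 5th and 95th percentiles of the log2 ratio were -1.17 and 1.003 at distal and -0.58 and 0.55 at proximal peaks.

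Most large differences were at peaks that were weak in one of the lines. No peak was under 2.32 in both lines: the higher value of the lines was at least 2.32 at each of the 34553 peaks. A peak with a lower value than that in one line was therefore listed through the other line, and had to differ. In dCD cells 10.4% of distal and 2.15% of proximal peaks were under 2.32, and in wild-type cells 4.43% and 0.78%. The limit thus enters the rho of the 2 groups unequally. Of the 1547 lower peaks, 80.5% were under this level in dCD cells, and of the 1089 higher peaks 63.0% were under it in wild-type cells. Read as signal over background, a fold enrichment under 1 is no enrichment at all. This was the case at 254 peaks in dCD cells, 224 of them distal, where wild-type cells had 2.44 to 9.19 with a median of 3.51. In wild-type cells it was the case at 45 peaks, 42 of them distal, where dCD cells had 2.75 to 7.79 with a median of 4.21. On that reading, 254 of the 34553 peaks had no enrichment in dCD cells and 45 had none in wild-type cells. The denominator of the fold enrichment is not given in the sources used here. These counts use unscaled values and were not repeated under another scaling.

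**Figure D1:**
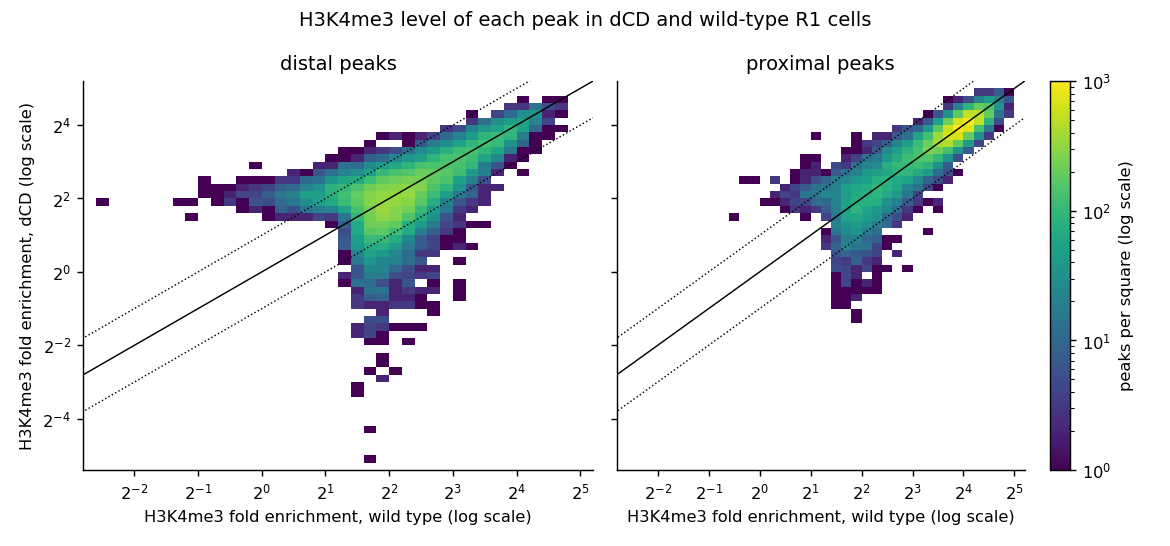
H3K4me3 fold enrichment of each peak in dCD cells (vertical, log scale) against wild-type cells (horizontal, log scale), for distal and proximal peaks, with colour for the number of peaks per square, a solid line at equal values and dotted lines at 2-fold. Proximal peaks lie along the line of equal values up to the highest levels, and distal peaks form a low cloud with 2 arms, since no peak is under 2.32 in both lines.

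Narrow peaks held most of the differences, and wide peaks were rarely called in either direction. Width went with level, with a Spearman's rho of 0.678 in dCD and 0.688 in wild-type cells. The shares by width below were not compared at equal level. Among the 826 peaks under 500 bp, the median fold enrichment was 3.42 in dCD and 4.17 in wild-type cells, a median log2 ratio of -0.30, and 73.2% had a lower value in dCD cells. In this class 12.3% were at least 2-fold lower and 4.36% higher. Of the 8880 peaks of 500 to 1000 bp, 8.48% were lower and 6.06% higher. Of the 11824 peaks of 1 to 2 kb, 4.36% were lower and 3.67% higher, with a median log2 ratio of 0.02. No other width class had a median above 0. Of the 10173 peaks of 2 to 4 kb, 1.55% were lower and 0.65% higher, and of the 2758 peaks of 4 to 10 kb, 0.65% and 0.47%.

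Broad H3K4me3 domains are known from other work to cover genes that define a cell's identity. Here 92 peaks were 10 kb or wider, 78 of them distal by the authors' group. Their median fold enrichment was 11.5 in dCD and 11.4 in wild-type cells. None was at least 2-fold lower, which with 92 peaks says little about shares as small as those of the classes next to it, and 2 were higher. The widest of all, on chromosome 11 (mm9, 96159788 to 96208372, 48584 bp), was one of these, with 9.94 in dCD and 4.71 in wild-type cells, a log2 ratio of 1.08 that was 0.94 and short of 2-fold with a pseudocount of 1. H3K4me2 over it was 9.71 in dCD and 4.54 in wild-type cells, and H3K4me1 was 4.50 in dCD and 2.75 in wild-type cells. The next widest, on chromosome 6 (52105725 to 52134138, 28413 bp), had 14.1 in dCD and 9.66 in wild-type cells, short of 2-fold. The third, on chromosome 9 (114452305 to 114474584, 22279 bp), had 11.4 in dCD and 12.0 in wild-type cells.

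**Figure D2:**
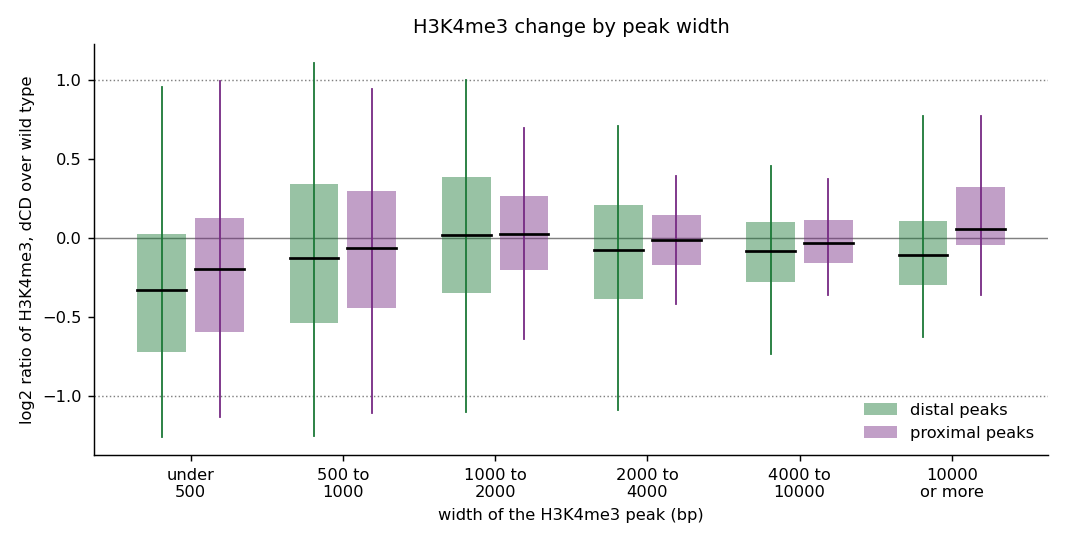
Log2 ratio of H3K4me3 in dCD over wild-type cells (vertical) by peak width in bp (horizontal), for distal and proximal peaks, with black bars at the median, boxes from the 25th to the 75th percentile of peaks, lines from the 5th to the 95th, and dotted lines at 2-fold. Peaks under 500 bp have the lowest medians, and the spread narrows between 1 and 10 kb.

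The share of peaks past 2-fold followed the level in either line. Peaks were put into 10 equal classes by wild-type fold enrichment. In the lowest class (median 3.97 in dCD and 2.73 in wild-type cells) 27.5% were higher in dCD cells and 4.31% lower. In the 2nd to the 4th class between 9.26% and 9.75% were lower and between 0.55% and 1.91% higher. From the 7th class up no peak was higher, and in the upper 3 classes 8, 1 and 1 peaks were lower. Ordered by the level in dCD cells, the calls changed places. In the lowest class (median 2.12 in dCD and 3.65 in wild-type cells) 39.9% were lower and none higher, and in the 4th class 0.43% were lower and 9.004% higher. In the highest class by wild-type level, where 94.7% of peaks were proximal, the median was 18.2 in dCD and 18.9 in wild-type cells, a log2 ratio of -0.08. In the highest class by dCD level it was 18.96 in dCD and 18.3 in wild-type cells, a log2 ratio of 0.08. The level used to order the peaks also enters their ratio, so neither order is independent of the change.

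**Figure D3:**
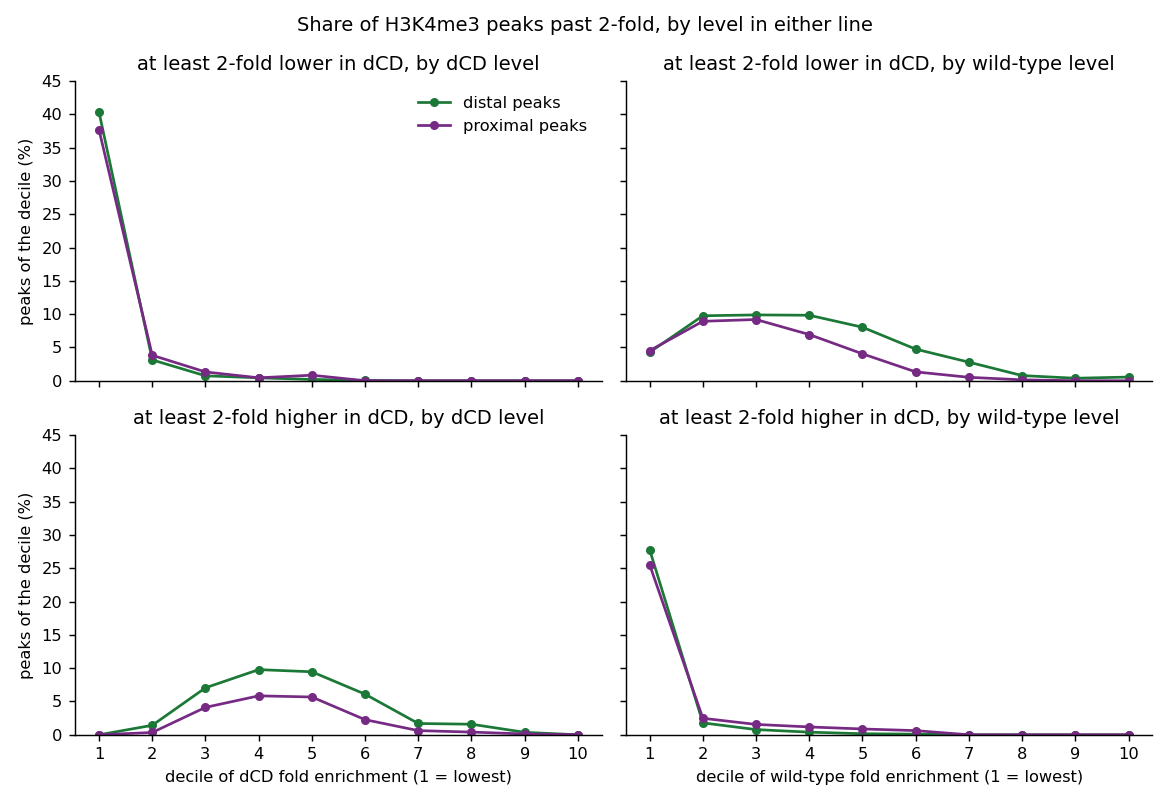
Share of H3K4me3 peaks at least 2-fold lower (top) or higher (bottom) in dCD cells, in percent of the peaks of each decile, against the decile of fold enrichment in dCD (left) or wild-type cells (right), for distal and proximal peaks. Both kinds of call gather in the lowest decile of the line with the smaller value, at 39.9% and 27.5% of all its peaks.

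Calls in both directions were mostly at distal peaks. Of the distal peaks 7.17% were lower and 5.04% higher, against 1.54% lower and 1.09% higher of the proximal peaks, differences of 5.62 and 3.95 percentage points. Most of this went with the lower level of distal peaks. With both groups given the same mix of wild-type levels, 5.10% of distal and 3.56% of proximal peaks were lower (1.54 points), and 3.10% of distal and 3.23% of proximal peaks were higher (-0.12 points). With the same mix of dCD levels, 4.49% of distal and 4.41% of proximal peaks were lower (0.08 points), and 3.75% and 1.94% were higher (1.80 points). With the same mix of the mean of both lines the differences were 0.24 and 0.65 points, and with the same mix of widths 3.58 and 2.30 points. The median log2 ratio was lower at distal than at proximal peaks in 9 of 10 classes of wild-type level, higher in 8 of 10 classes of dCD level, and higher in 6 of 10 classes of the mean. A difference between distal and proximal peaks at equal level was therefore not resolved.

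Overlap with peaks of the other marks was counted from 1 bp. Of the 34553 H3K4me3 peaks, 30995 overlapped peaks of both H3K4me1 and H3K4me2. This class was 51.2% proximal, and 3.50% of it was lower and 2.94% higher. Another 2886 peaks overlapped H3K4me2 only, with a median of 4.22 in dCD and 4.70 in wild-type cells, and 11.3% were lower and 4.68% higher. The 623 peaks with neither mark were narrow (median 515 bp) and distal in 580 cases. They had a median of 3.01 in dCD and 4.55 in wild-type cells, a log2 ratio of -0.63. Of these 90.2% were below wild type, 21.2% were at least 2-fold lower and 3.21% higher. Just 49 peaks overlapped H3K4me1 only, of which 4 were lower and 22 higher.

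The 3 marks were measured in separate ChIP libraries, but each line has 1 pair of inputs for all of them, and whether the enrichments are relative to these inputs is not given in the sources used here. Values of the marks are given side by side. Where several peaks of another mark overlapped, their log2 ratios were averaged by overlapped bases. H3K4me1 was at least 2-fold lower at 887 H3K4me3 peaks, 789 of them distal. At these the median H3K4me3 was 2.38 in dCD and 3.48 in wild-type cells, and 337 of them (38.0%) were lower in H3K4me3 as well, against 3.30% of the 22602 peaks with H3K4me1 within 2-fold. The share followed the size of the H3K4me1 difference. It was 75.8% of the 62 peaks with H3K4me1 at least 4-fold lower, 35.2% of the 825 with H3K4me1 2- to 4-fold lower, and 8.61% of the 6467 with H3K4me1 up to 2-fold lower. At 7555 H3K4me3 peaks H3K4me1 was at least 2-fold higher, and 6002 of these were proximal. H3K4me3 there was 14.7 in dCD and 14.1 in wild-type cells, with 7 peaks lower and 154 higher. These were 21.9% of the H3K4me3 peaks, and 97.9% of them were within 2-fold in H3K4me3, near the 97.4% of all proximal peaks and beside 92.4% of all peaks.

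H3K4me2 was at least 2-fold lower at 2769 H3K4me3 peaks, 2429 of them distal, with an H3K4me3 median of 2.79 in dCD and 3.64 in wild-type cells. Of these 861 (31.1%) were lower in H3K4me3, made up of 29.7% of the distal and 41.2% of the proximal ones. Higher in H3K4me3 were 4.15% of the 2769 peaks, against 2.27% of the peaks with H3K4me2 within 2-fold. The share of lower peaks was 63.9% of the 515 peaks with H3K4me2 at least 4-fold lower and 23.6% of the 2254 with 2- to 4-fold lower. It was 4.45% with H3K4me2 up to 2-fold lower and 0.15% with H3K4me2 up to 2-fold higher. At the 494 peaks with H3K4me2 at least 2-fold higher, H3K4me3 was 6.17 in dCD and 3.33 in wild-type cells, and 48.2% were higher and none lower.

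Taking the marks together, H3K4me3 was lower at 43.0% and higher at 5.76% of the 746 peaks where both H3K4me1 and H3K4me2 were lower. With H3K4me2 alone lower and H3K4me1 within 2-fold, 21.6% of 1779 peaks were lower and 3.82% higher. With H3K4me1 alone lower and H3K4me2 within 2-fold, 14 of 134 peaks were lower (10.4%) and 10 higher (7.46%). The highest share of lower peaks, 63.9%, was at 244 peaks with lower H3K4me2 and no H3K4me1 peak, where 1.64% were higher. Where both marks were within 2-fold (20690 peaks), 1.74% were lower and 2.82% higher. Where H3K4me1 was higher and H3K4me2 within 2-fold (7278 peaks), 0.10% were lower and 0.60% higher. Where both marks were higher (271 peaks) 40.2% were higher in H3K4me3. With H3K4me2 higher the share was larger where H3K4me1 was within 2-fold (55.7% of 97 peaks) or had no peak (59.5% of 126).

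These shares were also taken within classes of H3K4me3 level, each of which uses a value that enters the ratio. With the peaks in 3 equal classes by wild-type H3K4me3, 34.7% of peaks with lower H3K4me1 were lower in H3K4me3 in the lowest class, against 5.46% of those with H3K4me1 within 2-fold. In the middle class it was 53.9% against 3.39%. For H3K4me2 the shares were 26.95% against 3.42% in the lowest class and 44.4% against 2.31% in the middle class. The highest class held just 6 peaks with lower H3K4me1 and 6 with lower H3K4me2, 2 and 5 of them lower in H3K4me3. By the mean of both lines, the H3K4me1 shares were 40.1% against 7.84% in the lowest class and 17.7% against 1.17% in the middle one, and the H3K4me2 shares 33.0% against 5.36% and 18.7% against 0.95%. By dCD level, the H3K4me1 shares were 42.3% against 9.03% in the lowest class and 0% of 87 peaks against 0.17% in the middle one. The H3K4me2 shares by dCD level were 35.2% against 6.33% and 0.60% against 0.18%. Above the lowest class of dCD level few peaks were thus lower in H3K4me3. With the weakest 25% left out, ranked on the average of dCD and wild-type values, 19.1% of peaks with lower H3K4me1 and 17.7% of those with lower H3K4me2 were lower in H3K4me3, and when ranked on wild-type values alone the shares were 50.9% and 41.2%.

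**Figure D4:**
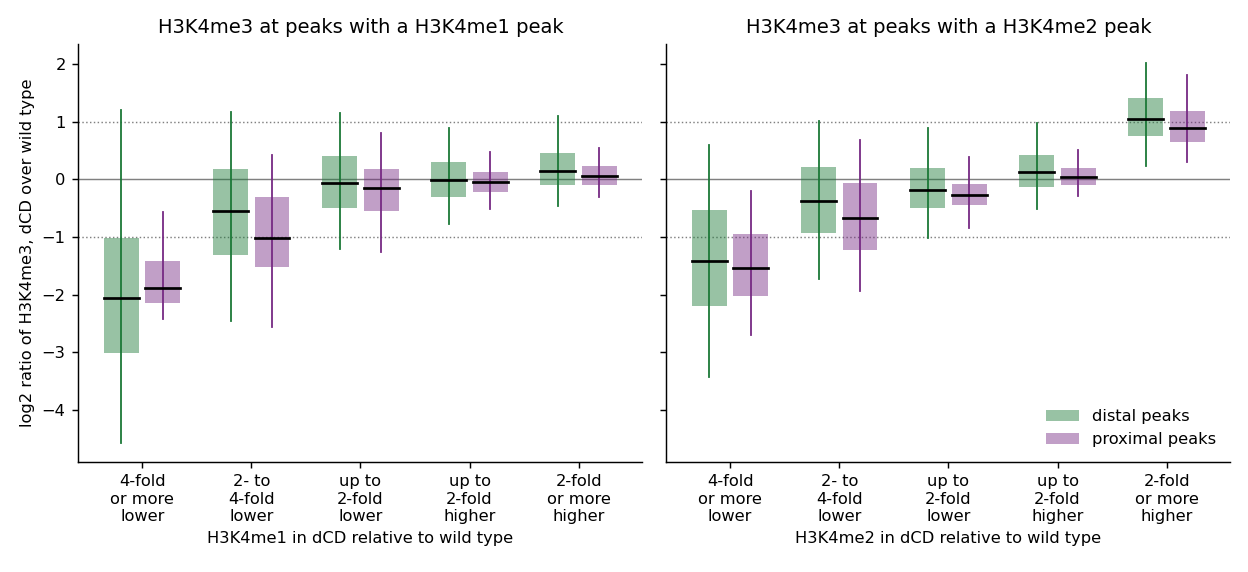
Log2 ratio of H3K4me3 in dCD over wild-type cells (vertical) by the change of the overlapping H3K4me1 (left) or H3K4me2 peak (right), for distal and proximal peaks, with black bars at the median, boxes from the 25th to the 75th percentile of peaks and lines from the 5th to the 95th. H3K4me3 is lowest where the other mark is at least 4-fold lower, and has medians of 0.15 (distal) and 0.05 (proximal) where H3K4me1 is at least 2-fold higher, and of 1.05 and 0.88 where H3K4me2 is at least 2-fold higher. With H3K4me1 at least 4-fold lower, the proximal box rests on just 4 peaks and the distal one on 58.

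Read from the H3K4me3 side, 91.2% of the 1547 lower peaks had an H3K4me2 peak, and 61.0% of those were lower in H3K4me2 and none higher. Over all H3K4me3 peaks 98.1% had an H3K4me2 peak, and 8.17% of those were lower in H3K4me2 and 1.46% higher. An H3K4me1 peak was present at 70.5% of the lower peaks, and 30.9% of those were lower in H3K4me1 and 0.64% higher. Over all H3K4me3 peaks 89.8% had an H3K4me1 peak, and 2.86% of those were lower in H3K4me1 and 24.3% higher. The lower peaks had a median H3K4me3 of 1.63 in dCD and 4.23 in wild-type cells. The 1089 higher peaks had 5.08 in dCD and 2.08 in wild-type cells. Of the higher peaks 96.1% had an H3K4me2 peak, with 22.7% of those higher in H3K4me2 and 10.98% lower, a share near that over all peaks. An H3K4me1 peak was present at 85.8% of the higher peaks, with 16.5% of those higher in H3K4me1 and 5.89% lower. Among the peaks within 2-fold in H3K4me3 these shares were 25.5% and 1.71%. The lower and the higher peaks were both 83.5% distal, against 49.6% of the peaks within 2-fold, so the pooled shares mix the groups. Among distal peaks with H3K4me1, it was higher at 13.5% of the higher, 0.79% of the lower and 10.7% of the peaks within 2-fold. Among proximal ones these were 32.6%, 0% and 38.4%.

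Region tables of another ES cell line, 129/Ola, were used to describe where the peaks lie. They list regions with H3K4me1, H3K4me3 or both, and the authors' active and poised enhancers, which carry H3K4me1 without H3K4me3. A peak that touched several kinds was put with H3K4me3 first. Of the 14898 peaks on regions with both marks, 1.77% were lower and 1.10% higher in dCD R1 cells, and of the 7104 on regions with H3K4me3 only, 0.62% and 0.20%. On active enhancers lay 2734 peaks with a median H3K4me3 of 3.88 in dCD and 3.74 in wild-type cells, and 9.03% were lower and 6.07% higher. On poised enhancers lay 1952 peaks, with 4.15 in dCD and 3.80 in wild-type cells, and 6.76% were lower and 7.58% higher. On the active enhancers the median log2 ratio of H3K4me2 was -0.67, beside -0.05 for H3K4me3. The 6314 peaks on no listed region were 798 bp wide at the median and held 47.1% of all lower and 42.8% of all higher peaks, with 11.5% lower and 7.38% higher. On regions with H3K27ac, a mark of active enhancers and promoters, 2.66% of 23920 peaks were lower and 1.68% higher. Of the 10633 peaks with no H3K27ac listed 8.57% were lower and 6.47% higher. Among peaks within 2-fold in H3K4me3, H3K27ac was listed at 85.0% of proximal and 58.2% of distal ones. The sets with and without H3K27ac thus differed in group, and their shares were not compared at equal H3K4me3 level.

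Peaks were also set beside their nearest neighbour. Of the 1022 lower peaks with another H3K4me3 peak within 10 kb, the nearest one was also lower for 22.5% and higher for 1.17%. Of 428 higher peaks the nearest was higher for 9.81% and lower for 2.57%, and of 17135 peaks within 2-fold it was lower for 5.04% and higher for 2.18%. Peaks under 2 kb from the next one were lower in 7.67% and higher in 1.95% of 7026 cases, while peaks 50 kb or more away were lower in 3.94% and higher in 5.31% of 4823. Neighbours were not merged, and whether peaks under 2 kb apart are pieces of 1 domain was not tested. In runs of neighbouring peaks called the same way, 3 runs held 5 lower peaks each, while no run of higher peaks held more than 4.

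The 3 longest runs spanned 32993 to 41263 bp. The one on chromosome 9 (114921258 to 114958572) had 5 distal peaks with 0.370 to 2.09 in dCD and 3.22 to 4.76 in wild-type cells. H3K4me2 was at least 2-fold lower at all 5 and H3K4me1 at 1 of the 4 that had it. That on chromosome 10 (70300339 to 70341602) had 0.412 to 1.63 in dCD and 3.21 to 4.54 in wild-type cells over 5 distal peaks. H3K4me2 was lower at all 4 of these that had it and H3K4me1 at all 3 that had it. The other on chromosome 10 (119597560 to 119630553) had 0.795 to 2.81 in dCD and 4.13 to 7.75 in wild-type cells, over 4 distal peaks and 1 proximal peak of 5677 bp. H3K4me2 was lower at 4 and H3K4me1 at 2 of its 5 peaks. This run was the one that kept 5 lower peaks under each scaling and pseudocount tried. Each gap between its first 4 peaks was under 2 kb, and the first 2 had the same H3K4me2 values, 3.37 in dCD and 7.94 in wild-type cells. Whether these peaks are pieces of 1 domain was not tested. After quantile normalization the run on chromosome 9 and the first one on chromosome 10 held 4 lower peaks each, and with a pseudocount of 1 they held 4 and 3.

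Single peaks are named by position among those whose higher value of the lines was at or above 7.32, the table's median of that value, to leave out the weakest ones. This left 4017 distal and 13260 proximal peaks. The lowest distal ratio was on chromosome 8 (80537206 to 80540352, 3146 bp), with 0.576 in dCD and 8.97 in wild-type cells, a log2 ratio of -3.96. H3K4me2 there was 0.272 in dCD and 5.38 in wild-type cells, and no H3K4me1 peak overlapped it. On chromosome 13 (38756852 to 38758860) the value was 0.674 in dCD and 9.19 in wild-type cells, with H3K4me2 of 0.712 in dCD and 6.93 in wild-type cells and H3K4me1 of 0.429 in dCD and 3.14 in wild-type cells. All 3 values were thus under 1 in dCD cells at this place, which is no enrichment if read as signal over background. The next distal ones were on chromosome 6 (65746904 to 65750253), with 0.830 in dCD and 8.27 in wild-type cells, and on chromosome 3 (88370805 to 88375795), with 1.23 in dCD and 9.13 in wild-type cells.

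The highest distal ratio was on chromosome 12 (35180848 to 35181549, 701 bp), with 7.79 in dCD and 0.998 in wild-type cells. H3K4me2 there was 5.65 in dCD and 0.658 in wild-type cells. A pair of the next 3 lay close together on chromosome 9, at 91280935 to 91282782 with 7.37 in dCD and 1.79 in wild-type cells, and at 91298531 to 91301575 with 9.58 in dCD and 2.44 in wild-type cells. At both, H3K4me1 was more than 2-fold higher as well, at 4.95 in dCD and 2.37 in wild-type cells for the first. The remaining one, on chromosome 10 (118875752 to 118876858), had 8.19 in dCD and 2.03 in wild-type cells, and H3K4me1 of 4.86 in dCD and 1.14 in wild-type cells.

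Proximal peaks differed less at their extremes on the lower side. The lowest ratio was on chromosome 5 (102268767 to 102271436), with 2.05 in dCD and 9.36 in wild-type cells. The next were on chromosome 11 (69671079 to 69672924), with 3.11 in dCD and 12.1 in wild-type cells, on chromosome 10 (77499110 to 77501313), with 3.51 in dCD and 11.9 in wild-type cells, and on chromosome 17 (24157863 to 24160345), with 3.94 in dCD and 10.6 in wild-type cells. At the chromosome 11 peak H3K4me1 was nearly the same in the lines, 3.14 in dCD and 3.39 in wild-type cells, while H3K4me2 was 4.86 in dCD and 10.8 in wild-type cells. All 4 kept a fold enrichment above 2 in dCD cells, unlike the 4 distal ones.

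Of the 4 highest proximal ratios, the first was on chromosome 9 at 121846453 to 121848017, where H3K4me1 was 4.36 in dCD and 1.21 in wild-type cells beside an H3K4me3 of 13.4 in dCD and 2.27 in wild-type cells. The next pair were both on chromosome 18, with 8.60 in dCD and 1.99 in wild-type cells at 37493420 to 37494176, and 8.34 in dCD and 2.06 in wild-type cells at 37580967 to 37582087. The fourth, on chromosome 2 (35475623 to 35476309), had 7.62 in dCD and 2.19 in wild-type cells, and H3K4me1 and H3K4me2 there were within 2-fold. The peaks with the highest wild-type levels were proximal. On chromosome 6 (99641529 to 99644280) H3K4me3 was 26.8 in dCD and 30.4 in wild-type cells, on chromosome 12 (3805802 to 3809294) 29.3 in dCD and 29.5 in wild-type cells, and on chromosome 16 (98071681 to 98074441) 23.6 in dCD and 29.4 in wild-type cells. H3K4me1 at the first of these was 5.83 in dCD and 2.097 in wild-type cells.

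**Figure D5:**
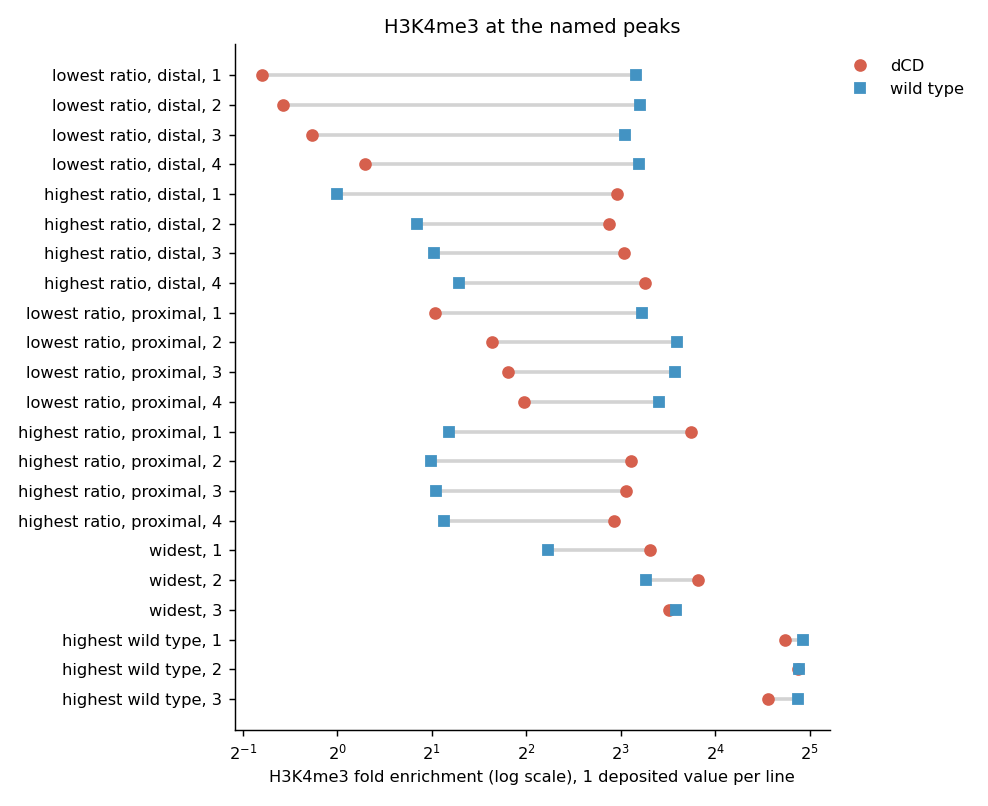
H3K4me3 fold enrichment (horizontal, log scale) in dCD (circles) and wild-type cells (squares), 1 deposited value per line, at the 22 named peaks in rows. The 4 distal peaks with the lowest ratios have 0.576 to 1.23 in dCD cells, and the 3 peaks with the highest wild-type levels have 23.6 to 29.3 in dCD and 29.4 to 30.4 in wild-type cells.

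By chromosome, the median log2 ratio was below 0 on all 19 autosomes, between -0.08 on chromosome 7 and -0.002 on chromosome 9. This sign depends on the scaling, since after median centring, a shift of 0.03, it was below 0 on 10 of 19. The share of lower peaks ran from 3.60% on chromosome 4 to 6.198% on chromosome 16. The X chromosome, with 909 peaks, had a median of 0.002, and 2.75% of its peaks were lower and 3.63% higher.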

How the data were processed

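H3K4me3 ChIP-seq of R1 ES cells was used, from 2 dCD and 2 wild-type libraries, grouped by genotype. The authors deposited 1 peak table per mark with a fold enrichment (a ratio) per line, marked FE per the file headers. The sources used here do not give its denominator, the peak calling, any pooling of libraries or the distance that makes a peak proximal. The submitters' processing notes name build mm9. They list MACS2 (version 2.1.0.20150731), the aligner BWA (version 0.7.13-r1126) and, with no role stated, Picard (version 2.11.0) and deepTools (versions 2.5.1 and 2.5.3). Positions are printed as deposited. No mm9 annotation or genome was used here, so peaks carry no gene names and no sequences, and the labelled cell type was not checked against marker genes.

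In the deposited layout, positions follow chromosomes in text order while the values follow number order. Each chromosome's values were put back on its rows. Spearman's rho of width with wild-type level was 0.674 on chromosome 1, where both orders coincide. On chromosomes 2 to 19 it was 0.651 to 0.724 after this step and -0.051 to 0.048 before.

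Ratios of dCD over wild type were computed without a pseudocount in Python 3.11.15 with pandas 2.3.3. Peaks were matched to other peaks at 1 bp of overlap or more, and the steps were tested on simulated data. In the 129/Ola region tables the authors deposited log2 enrichments, used only as presence. With 1 value per line no test was made. The authors' own class of change was not used. The peaks named were the 4 lowest and 4 highest log2 ratios in each group, among peaks at or above the median of the higher value of both lines, the 3 widest peaks, the 3 with the highest wild-type value and the 3 longest runs. Peaks, classes and rules were chosen with earlier results of these data known. Alternatives were other scalings, filters, limits, layouts and overlaps.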

Additional observations from a re-analysis of the deposited data

How the results depend on the processing

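No paired analysis was possible because the table gives 1 value per line, and for the same reason no replicate could be left out. In the main analysis 1547 peaks were lower and 1089 higher, the median log2 ratio was -0.07 at distal and -0.01 at proximal peaks, the distal minus proximal differences in share were 5.62 (lower) and 3.95 points (higher), and 38.0% and 31.1% of peaks with lower H3K4me1 and with lower H3K4me2 were lower in H3K4me3. The values below come in that order, and values that moved little are left out. Calls are lost or gained with the limit and the filter by construction, and the cause of the other moves was not tested.

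With a limit of 1.5-fold for all marks, 4137 peaks were lower and 3234 higher, the differences were 13.6 and 9.50 points, and the H3K4me2 share was 39.3%. With 3-fold, 476 were lower and 207 higher, the differences were 1.92 and 0.81 points, and the H3K4me1 share was 47.1%. With a pseudocount of 1, 682 were lower and 480 higher, the distal median was -0.058, the differences were 2.60 and 1.70 points, and the shares 25.7% and 18.4%. Quantile normalization gave 986 lower and 1497 higher peaks, the latter within 1.5-fold of the main count but now the larger set. It gave a distal median of -0.050, differences of 3.55 and 5.40 points and shares of 29.5% and 22.7%. After median centring the distal median was -0.035 and the proximal median 0.019, a change of sign. On chromosomes 1, X and Y, with 2827 of the 34553 peaks, 107 were lower and 94 higher, counts that fall with the number of peaks. There the proximal median was 0.017, the difference in higher peaks 3.45 points and the shares 32.9% and 25.1%.

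Without the lowest 25% by the mean of both lines, 302 peaks were lower and 411 higher, the medians were -0.0018 and -0.0031, the differences 1.87 and 2.24 points, and the shares 19.1% and 17.7%. Without the lowest 25% by wild-type level, 891 were lower and 58 higher, the distal median was -0.15, the difference in higher peaks 0.045 points, and the shares 50.9% and 41.2%. At equal mixes of level, added after the data were seen, the differences were 1.54 and -0.12 points by wild-type level, 0.079 and 1.80 by dCD level and 0.24 and 0.65 by the mean. With the values left as deposited, the medians were -0.036 and -0.029, the differences 0.21 and 0.31 points, and the shares 4.71% and 5.24%, near the 4.48% of the whole table. Covering 50% or more of the peak in place of 1 bp moved neither overlap share beyond its counting interval.

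At the 37 peaks named alone or in runs, quantile normalization took 2 within the 2-fold limit, on chromosomes 9 (114921258) and 10 (70341031). A pseudocount of 1 took these, one more on chromosome 10 (70319955) and the widest peak on chromosome 11 (96159788) within it, and centring turned 1, on chromosome 12 (3805802), to 0.020. In the deposited layout 13 of them had a log2 ratio of the other sign. These were 0.016 on chromosome 6 (65746904), 0.071 on 3 (88370805), -0.19 on 9 (91280935), -0.76 on 10 (118875752), 0.44 on 5 (102268767), 0.086 on 11 (69671079), -0.42 on 6 (52105725), 0.39 on 12 (3805802), 0.21 and 0.65 on 9 (114946482 and 114957752) and 0.41, 0.30 and 0.19 on 10 (70300339, 70319955 and 70341031).

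Depth is unknown, so how far low values reflect sampling was not tested.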
